A study of Mus musculus with 5 samples.

Results

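The ephrin, SLIT/ROBO and netrin guidance genes were examined in cultured mouse neural stem cells (NSCs) and in STO fibroblasts. Members were taken by gene symbol alone: the EphA and EphB receptors (Epha and Ephb followed by a number), the ephrins (Efna1 to Efna5 and Efnb1 to Efnb3), Slit1 to Slit3, Robo1 to Robo4, the netrins Ntn1, Ntn3, Ntn4 and Ntn5, Unc5a to Unc5d, Dcc and Neo1. This gave 39 genes of 25415 in the deposited tables, with 68 RefSeq transcripts. The NSCs were primary cells of E12.5 mouse embryonic cortex, sequenced in 2 samples at passages 5 to 8, grown as an adherent culture on poly-ornithine and laminin in serum-free medium with EGF, bFGF and heparin. STO cells are an immortal line from SIM mouse embryos, kept as feeders for germline stem cells, sequenced in 3 samples after more than 30 passages and grown in medium with serum. The labels give C57BL/6 as the strain of both. The paper, however, describes STO cells as SIM-derived and resistant to thioguanine and ouabain, so a shared strain and genotype cannot be assumed. No knockout or drug treatment is given for these samples. Cell type, origin of the cells, culture medium and passage changed together, so they cannot be told apart. Nothing in the labels says whether the samples of a cell type were separate cultures, so a p-value measures only the spread between these samples.

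Axon guidance molecules are read at the cell surface and steer growing axons and migrating cells by attraction or repulsion. Ephrins stay on the membrane of the presenting cell, ephrin-A by a lipid anchor and ephrin-B by a transmembrane segment, and bind Eph receptor tyrosine kinases on the neighbouring cell, so that signals can pass in both directions. SLIT proteins are secreted and act on ROBO receptors, mostly as repellents, and netrins are secreted, laminin-related proteins that attract through DCC or neogenin and repel through UNC5 receptors. In the developing cortex these families guide commissural axons and migrating neurons, and outside the brain several of them act in blood vessels and connective tissue.

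Expression was given as FPKM (fragments divided by transcript length and by the mapped fragments of the sample), and the FPKM of transcripts with the same symbol were added. The samples held 15223341 to 22271895 fragments, as implied by the deposited confidence intervals, and replicates of a cell type had a Pearson's r of 0.994 to 0.996 across genes. The marker lists were on the labelled sides. All 6 neural stem cell markers reached a mean of 1 FPKM in NSCs and none did in STO cells (summed 3811 to 4028 FPKM against 0.0442 to 0.0724 FPKM), and the 6 fibroblast markers summed to 4.32 to 4.44 FPKM in NSCs and to 1363 to 1475 FPKM in STO cells. The NSC samples also held astrocyte markers (4 of 4 at a mean of 1 FPKM or more, summed 70.4 to 71.4 FPKM) and oligodendrocyte markers (2 of 3, 114 to 117 FPKM), which in STO cells summed to at most 0.432 and 1.14 FPKM. Neuron markers summed to 117 FPKM in both NSC samples (4 of 6 at a mean of 1 FPKM or more) and to 12.3 to 12.9 FPKM in STO cells (2 of 6). Map2 gave 101 FPKM of the NSC sum on average, and Tubb3 had a mean of 8.69 FPKM in NSCs and 8.30 FPKM in STO cells. The part of these other cells in the results was not tested. Endothelial markers (0 of 5 at a mean of 1 FPKM in either cell type, at most 0.576 FPKM summed) and microglia markers (0 of 4, at most 0.394 FPKM summed) were near 0 in every sample. In such bulk samples fewer cells of a type and less RNA per cell cannot be told apart.

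Of the 39 members, 28 had a mean of at least 1 FPKM in NSCs or in STO cells and were tested, and 11 were below this in both. Tested members were compared with limma on log2(FPKM + 1), fitted to all 12293 genes that passed the same filter, with Benjamini-Hochberg adjustment over all of them. At an adjusted p under 0.05, 13 members were higher in NSCs (Dcc, Efnb1, Efnb3, Epha4, Epha5, Ephb1, Ephb2, Ntn3, Ntn4, Robo1, Robo2, Unc5a and Unc5b), 10 were higher in STO cells (Efna1, Efna4, Efna5, Efnb2, Epha2, Epha7, Ephb4, Neo1, Slit2 and Unc5c), and Efna2, Efna3, Ephb3, Ephb6 and Ntn1 did not pass. With quantile normalization Epha4 changed sides. These cell types differed at most genes: 85.6% of all genes tested passed, 43.7% higher in NSCs and 41.9% higher in STO cells, so a count of calls alone says little about guidance genes. When a difference of at least 1 on the log2(FPKM + 1) scale was also required, 9 members were higher in NSCs and 9 in STO cells, or 18 of 28, where 38.4% of all genes tested passed in either direction (21.3% higher in NSCs and 17.1% higher in STO cells). Members that passed the filter through a single cell type had to differ, so these counts describe the members tested and not all 39. The median difference, STO minus NSC, was -0.14 over the 28 members against -0.023 over all genes tested, and the median size of the difference without its sign was 1.64 against 0.74. Values did not overlap between the cell types for 24 of the 28, against 89.9% of all genes tested.

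**Figure D1:**
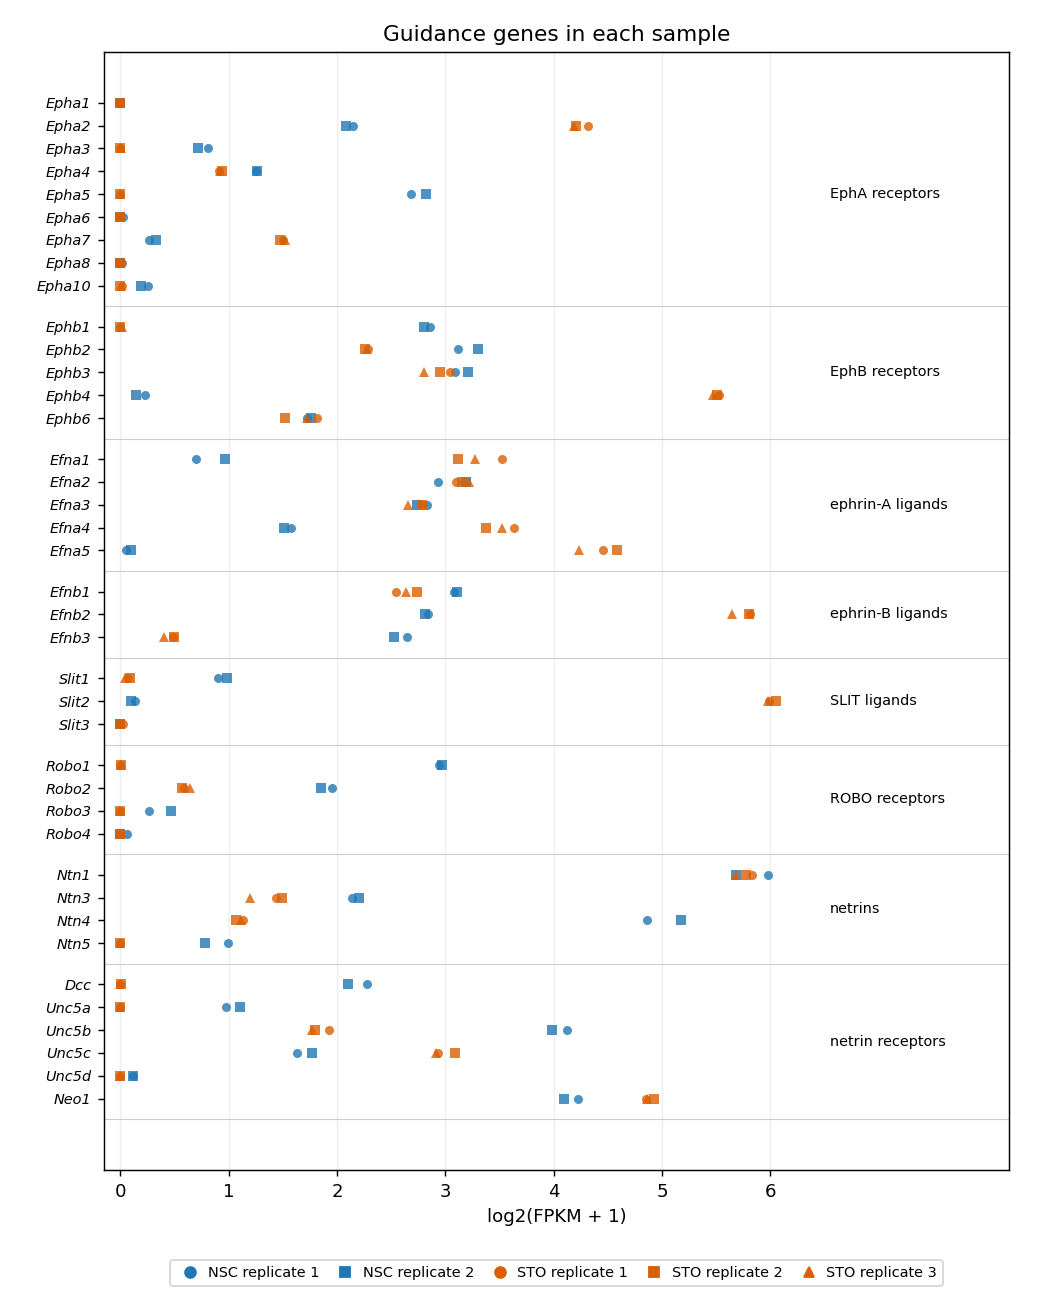
Each row is a member, grouped by class, and each point is a sample. The x axis is log2(FPKM + 1), blue marks NSC and orange STO samples, and the shape gives the replicate. Replicates lie close together. Slit2, Ephb4 and Efna5 are high in orange and near 0 in blue, while Robo1, Ephb1, Epha5 and Ntn4 are high in blue.

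Among the EphA receptors, the leading member changed from Epha5 in NSCs to Epha2 in STO cells. Epha5, a neuronal receptor for ephrin-A ligands, had 5.42 and 6.08 FPKM in NSC replicates 1 and 2 and was listed at 0 in all 3 STO replicates. It made up 47.5% to 51.6% of the summed EphA signal in NSCs, and differed by -2.75 ± 0.056 (SE, adjusted p = 5.3e-08). Epha2, an Eph receptor typical of epithelia and of cells in culture, had 3.44 and 3.25 FPKM in NSCs and 19.0, 17.5 and 17.2 FPKM in STO cells. Every STO value was above both NSC values, the mean ratio was 5.35, and the difference was 2.12 ± 0.063 (SE, adjusted p = 3.2e-07). Epha2 gave 86.1% to 87.4% of the EphA sum in STO cells.

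Epha7, which in the cortex is known for setting boundaries between cell groups, was low in both cell types but 8.03 times higher in STO cells. Its values were 0.203 and 0.254 FPKM in NSCs and 1.84, 1.78 and 1.87 FPKM in STO cells (difference 1.21 ± 0.046, SE, adjusted p = 9.6e-07). Epha4, a receptor that binds ephrins of both classes, lay near the filter, with 1.39 and 1.40 FPKM in NSCs and 0.883, 0.917 and 0.887 FPKM in STO cells. The groups did not overlap, and the difference of -0.34 ± 0.042 (SE) had an adjusted p of 0.00034, but with quantile normalization it became 0.36 (adjusted p = 0.00092), so its direction depends on the scaling. The other EphA receptors were below the filter. Epha3 had 0.751 and 0.649 FPKM in NSCs and at most 0.00731 FPKM in STO cells, Epha10 at most 0.196 FPKM in any sample, and Epha6 and Epha8 at most 0.0151 FPKM. Epha1 was listed at 0 in all 5 samples.

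The leading EphB receptor was Ephb2 in NSCs, with 32.1% to 34.7% of the class sum and Ephb3 close behind at 31.4% to 32.2%, and Ephb4 in STO cells. Ephb1, which takes part in the choice of retinal axons to cross the midline, had 6.26 and 5.97 FPKM in NSCs and 0, 0 and 0.0128 FPKM in STO cells (difference -2.82 ± 0.045, SE, adjusted p = 1.9e-08). Ephb4, best known as the venous partner of ephrin-B2, behaved the other way round: 0.169 and 0.107 FPKM in NSCs against 45.1, 44.5 and 43.2 FPKM in STO cells. The groups were far apart, with a mean ratio of 321 and a difference of 5.31 ± 0.055 (SE, adjusted p = 5.8e-09). The NSC values under this ratio came from about 20.9 and 15.1 fragments, as implied by their intervals, so the ratio is imprecise. Endothelial markers were near 0 in every sample, as given above, and the source of the Ephb4 signal was not tested. Ephb4 made up 76.8% to 78.2% of the EphB sum in STO cells and at most 0.705% in NSCs.

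Ephb2, Ephb3 and Ephb6 were present in both cell types. Ephb2, a receptor for ephrin-B ligands in axon guidance and at synapses, had 7.68 and 8.85 FPKM in NSCs and 3.87, 3.80 and 3.83 FPKM in STO cells. It was 2.16 times higher in NSCs, with a difference of -0.94 ± 0.068 (SE, adjusted p = 2.4e-05). Ephb3, a related receptor, had 7.53 and 8.23 FPKM in NSCs and 7.26, 6.74 and 5.98 FPKM in STO cells. The values did not overlap, but the difference of -0.22 (95% interval -0.43 to -0.0044) had an adjusted p of 0.054. It passed the threshold without STO replicate 1 (adjusted p = 0.027) and with quantile normalization (adjusted p = 0.039). Ephb6, whose kinase domain is inactive, had 2.31 and 2.38 FPKM in NSCs and 2.51, 1.87 and 2.31 FPKM in STO cells. These groups overlapped, and the difference of -0.055 (95% interval -0.28 to 0.17, adjusted p = 0.59) leaves room for a small change in either direction. It was 0.24 with quantile normalization (adjusted p = 0.027).

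In the ephrin-A ligands, Efna1, Efna4 and Efna5 were higher in STO cells, and Efna2 and Efna3 did not pass the threshold, where 41.9% of all genes tested were higher in STO cells. Efna5, a repellent of the retinal and cortical map, had 0.0368 and 0.0729 FPKM in NSCs and 20.9, 23.0 and 17.8 FPKM in STO cells. The mean ratio was 375 and the difference 4.35 ± 0.11 (SE, adjusted p = 1.3e-07). The NSC values under this ratio came from about 4.67 and 12.1 fragments, as implied by their intervals, so the ratio is imprecise. Efna1, a ligand of EPHA2, had 0.622 and 0.959 FPKM in NSCs and 10.5, 7.70 and 8.65 FPKM in STO cells. Efna4, another lipid-anchored ligand, had 1.97 and 1.85 FPKM in NSCs and 11.4, 9.40 and 10.5 FPKM in STO cells. Both were higher in every STO replicate, by 2.47 ± 0.14 (SE, adjusted p = 6.3e-06) for Efna1 and by 1.97 ± 0.084 (SE, adjusted p = 1.7e-06) for Efna4.

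Efna2 and Efna3 were at like levels in both cell types. Efna2 had 6.61 and 8.14 FPKM in NSCs and 7.57, 7.90 and 8.31 FPKM in STO cells (difference 0.097, 95% interval -0.12 to 0.32, adjusted p = 0.35). Rescaling all samples to the same FPKM sum took it past the threshold (0.25, adjusted p = 0.034), and without NSC replicate 1 the sign changed (-0.036). Efna3 had 6.13 and 5.69 FPKM in NSCs and 5.93, 5.91 and 5.32 FPKM in STO cells, and its difference of -0.040 (95% interval -0.20 to 0.12, adjusted p = 0.59) changed sign under 4 alternatives. Together Efna2 and Efna3 were most of the ephrin-A sum in NSCs, whereas in STO cells Efna5 alone gave 35.2% to 42.7%.

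Of the ephrin-B ligands, Efnb2 was higher in STO cells and Efnb1 and Efnb3 were higher in NSCs. Efnb2, the arterial ephrin and a ligand of EPHB4, had 6.15 and 6.02 FPKM in NSCs and 55.2, 54.8 and 49.1 FPKM in STO cells. This was 8.71 times higher, with a difference of 2.93 ± 0.067 (SE, adjusted p = 9.2e-08), and Efnb2 supplied 89.8% to 91.3% of the ephrin-B sum in STO cells. Efnb3, a midline repellent of the spinal cord, had 5.24 and 4.78 FPKM in NSCs and 0.400, 0.409 and 0.326 FPKM in STO cells. It was 13.2 times higher in NSCs (difference -2.12 ± 0.058, SE, adjusted p = 2.0e-07). Efnb1, an X-linked ligand with a role in skull sutures and in cortical progenitors, differed little, with 7.47 and 7.61 FPKM in NSCs and 4.84, 5.67 and 5.22 FPKM in STO cells. The groups did not overlap, and the difference was -0.45 ± 0.070 (SE, adjusted p = 0.00097).

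**Figure D2:**
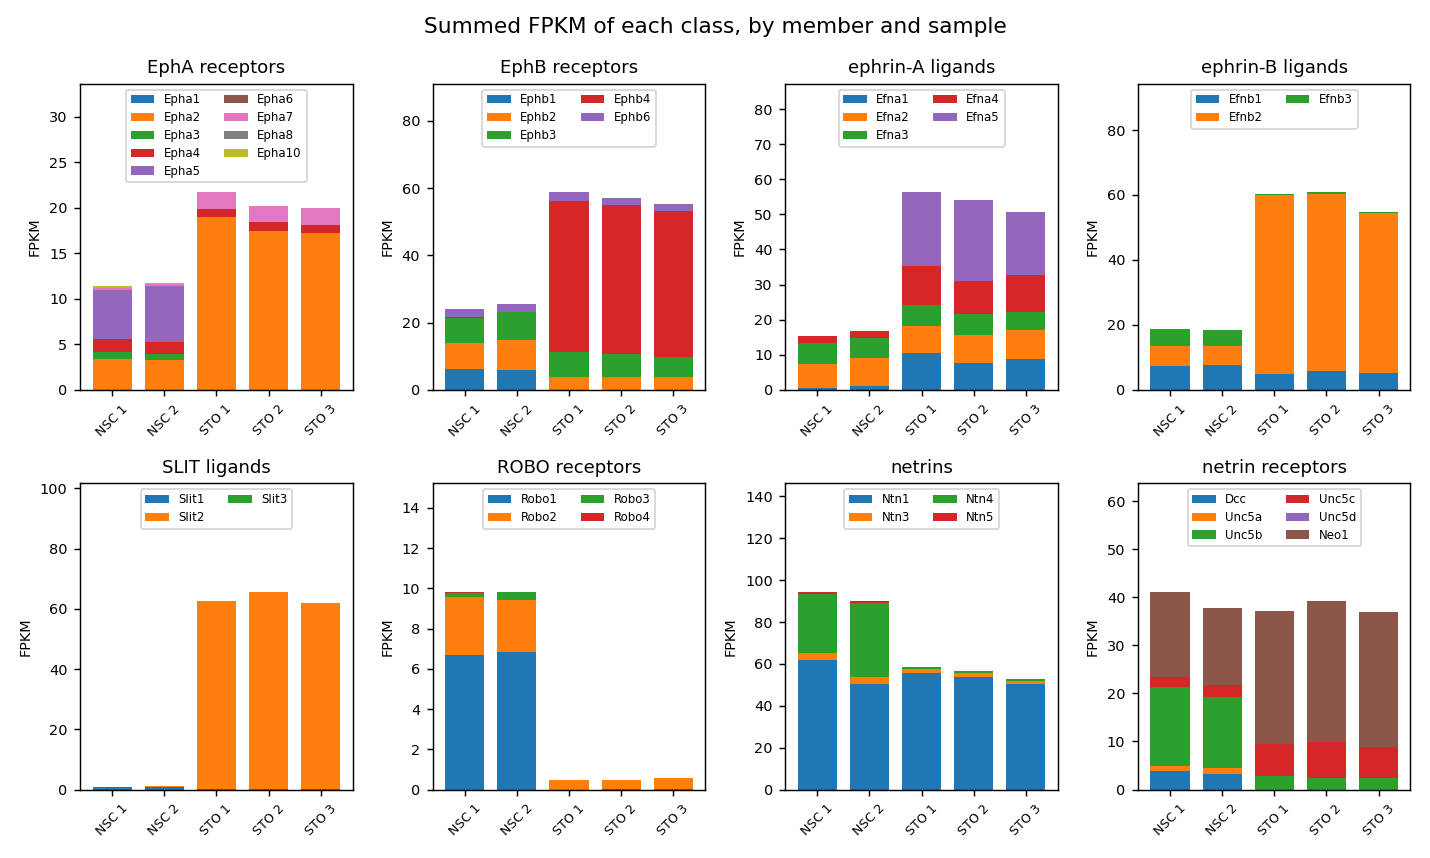
Stacked bars give the FPKM of each member, summed within 8 classes, for the 2 NSC and 3 STO samples; the y axis starts at 0 and its range differs between panels. In STO cells the EphA, EphB, ephrin-B and SLIT bars are each mostly a single member (Epha2, Ephb4, Efnb2 and Slit2), and the ROBO bars nearly vanish.

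Summed over a class, FPKM of the EphB receptors was 24.7 ± 1.1 (SD, n = 2) in NSCs and 57.0 ± 1.7 (SD, n = 3) in STO cells, and that of the EphA receptors 11.6 ± 0.25 (SD, n = 2) and 20.6 ± 0.95 (SD, n = 3). The ligands were likewise higher in STO cells, with 16.0 ± 0.96 (SD, n = 2) against 53.6 ± 2.9 (SD, n = 3) FPKM for ephrin-A and 18.6 ± 0.32 (SD, n = 2) against 58.6 ± 3.5 (SD, n = 3) FPKM for ephrin-B. These sums are descriptions without a test, and each is carried by few members. Both sides of the ephrin-B system, Efnb2 and Ephb4, were thus among the most abundant members of the same STO samples.

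The SLIT/ROBO pathway was split between the cell types, with the main ligand in STO cells and the receptors in NSCs. Slit2 (chr5:48374394-48698974 in mm9, plus strand), a secreted repellent, had 0.0991 and 0.0700 FPKM in NSCs and 62.6, 65.5 and 62.0 FPKM in STO cells. It was the highest member of all in STO cells, the mean ratio was 749.5, and the difference of 5.89 ± 0.053 (SE, adjusted p = 5.1e-09) was the largest among the 28. The NSC values under this ratio came from about 29.1 and 19.3 fragments, as implied by their intervals, so the ratio is imprecise. Robo1 (chr16:72663394-73046345, plus strand), the receptor of commissural axons and of cortical progenitors, had 6.68 and 6.82 FPKM in NSCs and 0, 0.00511 and 0.00384 FPKM in STO cells. The values above 0 in STO cells came from about 1 fragment each, as implied by their intervals, against 1587 and 1778 fragments in the NSC replicates, and the difference was -2.95 ± 0.043 (SE, adjusted p = 1.4e-08). Robo2, its neighbour and a further SLIT receptor, had 2.87 and 2.62 FPKM in NSCs and 0.499, 0.487 and 0.567 FPKM in STO cells (5.30 times higher in NSCs, difference -1.30 ± 0.053, SE, adjusted p = 1.4e-06). With quantile normalization its difference was -0.86, short of the size limit of 1.

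The remaining SLIT and ROBO genes were below the filter. Slit1, the SLIT of the forebrain, had 0.874 and 0.975 FPKM in NSCs and 0.0508, 0.0665 and 0.0333 FPKM in STO cells. It made up 89.8% to 93.3% of the small SLIT sum in NSCs. Slit3 was listed at 0 in 4 samples and had 0.0177 FPKM in STO replicate 1. Robo3, a regulator of midline crossing, had 0.202 and 0.381 FPKM in NSCs and was listed at 0 in STO cells. Robo4, an endothelial receptor, had at most 0.0414 FPKM in any sample. Over the class, the SLIT sum was 1.01 ± 0.051 (SD, n = 2) FPKM in NSCs and 63.4 ± 1.9 (SD, n = 3) in STO cells, and the ROBO sum 9.81 ± 0.015 (SD, n = 2) and 0.520 ± 0.043 (SD, n = 3) FPKM. The ROBO sum was thus above the SLIT sum in both NSC samples and below it in all STO samples.

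Sequences upstream of 4 of these genes are shown as examples of members near 0 in a single cell type: Slit2 and Ephb4 in NSCs, Robo1 and Ephb1 in STO cells. Each is the 250 bases before the start of the most abundant RefSeq transcript, read from the mm9 genome, 5′ to 3′ on the strand of the gene, with CpG dinucleotides in capitals.
Slit2 (chr5:48374144-48374393, plus strand): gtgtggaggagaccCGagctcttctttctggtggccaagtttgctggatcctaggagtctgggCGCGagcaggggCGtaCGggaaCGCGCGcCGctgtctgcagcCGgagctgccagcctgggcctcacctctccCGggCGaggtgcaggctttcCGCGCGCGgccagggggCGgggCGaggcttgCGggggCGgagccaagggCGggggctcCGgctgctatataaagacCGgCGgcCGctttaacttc
Ephb4 (chr5:137791087-137791336, plus strand): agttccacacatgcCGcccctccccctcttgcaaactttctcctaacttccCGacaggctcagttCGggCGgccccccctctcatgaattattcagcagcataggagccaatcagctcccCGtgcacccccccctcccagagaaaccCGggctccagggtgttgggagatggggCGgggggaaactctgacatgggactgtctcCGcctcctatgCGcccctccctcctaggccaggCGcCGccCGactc
Robo1 (chr16:72663144-72663393, plus strand): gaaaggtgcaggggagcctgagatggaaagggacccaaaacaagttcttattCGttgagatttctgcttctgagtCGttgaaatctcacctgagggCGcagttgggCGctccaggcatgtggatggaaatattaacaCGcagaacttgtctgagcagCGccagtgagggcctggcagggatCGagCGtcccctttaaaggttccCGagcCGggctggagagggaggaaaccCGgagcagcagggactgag
Ephb1 (chr9:102257024-102257273, minus strand): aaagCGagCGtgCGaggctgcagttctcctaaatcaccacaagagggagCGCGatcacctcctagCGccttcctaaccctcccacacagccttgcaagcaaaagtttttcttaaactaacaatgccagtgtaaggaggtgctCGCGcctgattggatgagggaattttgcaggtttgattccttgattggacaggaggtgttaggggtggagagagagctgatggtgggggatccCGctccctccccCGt
The windows held 25 CpGs for Slit2, 12 for Ephb4, 11 for Robo1 and 10 for Ephb1. The median was 10 over 19739 genes and 18 over the 39 members. Windows not shown include that of Efna5, near 0 in NSCs, with 32 CpGs. Those of Epha5 and Dcc, at or near 0 in STO cells, held 20 and 12. A TATA box (TATAAA, either strand) was found for Slit2 alone among the 39 members and in 11.6% of all such windows. The letters CATTGT, a core of SOX factor sites, were also sought on either strand. They were found for Ephb1, as ACAATG on the strand shown, for Ntn4, and in 8.73% of all windows. Such a match is a description of the letters only.

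Netrin genes were led by Ntn1 in both cell types. Ntn1, the classical floor plate attractant, had 61.9 and 50.4 FPKM in NSCs and 55.8, 53.8 and 50.3 FPKM in STO cells. The groups overlapped, the difference was -0.067 (95% interval -0.31 to 0.17, adjusted p = 0.54), and its sign changed with rescaling to the same sum (0.10) and without NSC replicate 1 (0.079). Ntn4, a netrin found in basement membranes, separated the cell types, with 28.1 and 35.2 FPKM in NSCs and 1.20, 1.09 and 1.17 FPKM in STO cells. It was 27.5 times higher in NSCs, and the difference of -3.91 ± 0.098 (SE, adjusted p = 1.4e-07) was the largest toward NSCs among the members on this scale. With a pseudocount of 0.1 it was -4.66, behind those of Robo1 (-6.06), Ephb1 (-5.90), Epha5 (-5.87) and Dcc (-5.18), which were at or near 0 in STO cells. Ntn3, a less studied netrin, had 3.40 and 3.60 FPKM in NSCs and 1.71, 1.82 and 1.29 FPKM in STO cells (difference -0.79 ± 0.097, SE, adjusted p = 0.00031), and its locus overlapped that of Tbc1d24 on the same strand. Ntn5 was below the filter, with 0.990 and 0.725 FPKM in NSCs and 0 in STO cells.

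Netrin receptors had nearly the same summed level in both cell types but a different make-up. The sums were 39.5 ± 2.3 (SD, n = 2) FPKM in NSCs and 37.8 ± 1.3 (SD, n = 3) FPKM in STO cells. Dcc, the receptor for attraction to netrin, had 3.85 and 3.29 FPKM in NSCs and 0, 0.00375 and 0 FPKM in STO cells (difference -2.19 ± 0.062, SE, adjusted p = 2.4e-07). Unc5b, a repulsive receptor also known from vessels, had 16.4 and 14.9 FPKM in NSCs and 2.80, 2.49 and 2.40 FPKM in STO cells. It was 6.10 times higher in NSCs (difference -2.22 ± 0.075, SE, adjusted p = 5.6e-07) and alone gave 39.2% to 40.0% of the receptor sum there. Unc5a had 0.964 and 1.15 FPKM in NSCs and was listed at 0 in STO cells. Its difference of -1.04 ± 0.051 (SE, adjusted p = 3.4e-06) lay just past the size limit of 1. It fell short of this limit with rescaling to the same sum (-0.99), without NSC replicate 2 (-0.97) and with quantile normalization (-0.44).

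Neo1 and Unc5c were the netrin receptors that were higher in STO cells. Neo1, neogenin, a relative of DCC that also binds repulsive guidance molecules, had 17.7 and 16.1 FPKM in NSCs and 27.8, 29.3 and 28.0 FPKM in STO cells. Without overlap, it was 1.68 times higher in STO cells (difference 0.72 ± 0.060, SE, adjusted p = 4.8e-05) and gave 74.6% to 75.8% of the receptor sum there, against 42.4% to 43.0% in NSCs. Unc5c, a repulsive receptor of cerebellar and motor neurons, had 2.11 and 2.41 FPKM in NSCs and 6.62, 7.50 and 6.53 FPKM in STO cells (3.05 times higher, difference 1.27 ± 0.078, SE, adjusted p = 1.0e-05). Unc5d stayed below the filter, with 0.0867 and 0.0873 FPKM in NSCs and 0 in STO cells.

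**Figure D3:**
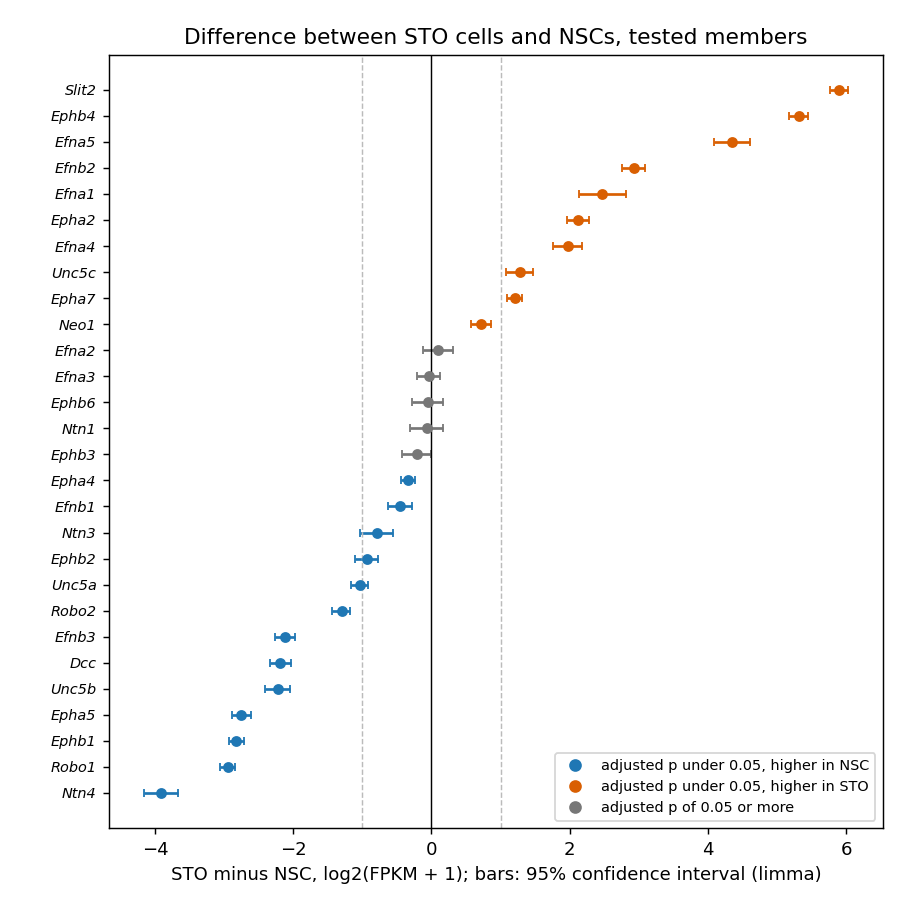
Points give the difference STO minus NSC in log2(FPKM + 1) for the 28 tested members, with 95% confidence intervals from limma; dashed lines mark differences of 1 in either direction. Slit2, at 5.89, and Ntn4, at -3.91, are the ends of the range, 5 members in grey did not pass the threshold, and Epha4 (blue, -0.34) changes sides with quantile normalization.

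Ordered by mean FPKM, which is per length and so can be set between genes, NSCs were led by Ntn1 (56.1 ± 8.1, SD, n = 2), Ntn4 (31.6 ± 5.1), Neo1 (16.9 ± 1.1) and Unc5b (15.6 ± 1.1). Neo1 and Unc5b overlapped between replicates. After them came Ephb2, Ephb3, Efnb1 and Efna2, at 7.38 to 8.26 FPKM. Each of these overlapped the next in this order, but Ephb2 lay above Efnb1 in both replicates. In STO cells the order was Slit2 (63.4 ± 1.9, SD, n = 3), Ntn1 (53.3 ± 2.8), Efnb2 (53.0 ± 3.4), Ephb4 (44.3 ± 0.95) and Neo1 (28.4 ± 0.81), of which Ntn1 and Efnb2 overlapped. Ntn1 and Neo1 were the members found among the leading 5 of both cell types.

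For members with several RefSeq transcripts, the deposited values also gave the share of each transcript. Neo1 transcript NM_008684 held 24.9% and 25.8% of Neo1 FPKM in the NSC replicates (4.39 and 4.15 FPKM) and was listed at 0 in all 3 STO replicates, where NM_001042752 held all of it. In Unc5b, NM_001359273 held 16.0% and 24.9% in NSCs and was listed at 0 in STO cells. Efna5 in STO cells was 77.5% to 81.5% NM_207654, and Ephb4 there was 86.1% to 87.6% NM_010144. The split was less steady elsewhere. Epha7 transcript NM_001290434 held 40.0% of the gene in STO replicate 2 and was listed at 0 in replicates 1 and 3, while the sum over transcripts stayed between 1.78 and 1.87 FPKM. Ephb2 transcript NM_001290753 was listed at 0 in STO replicate 1 and held 27.4% and 27.3% in replicates 2 and 3. Transcripts of a gene share most of their reads, and Cufflinks divides these between them, so shares are less certain than sums and were not tested.

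**Figure D4:**
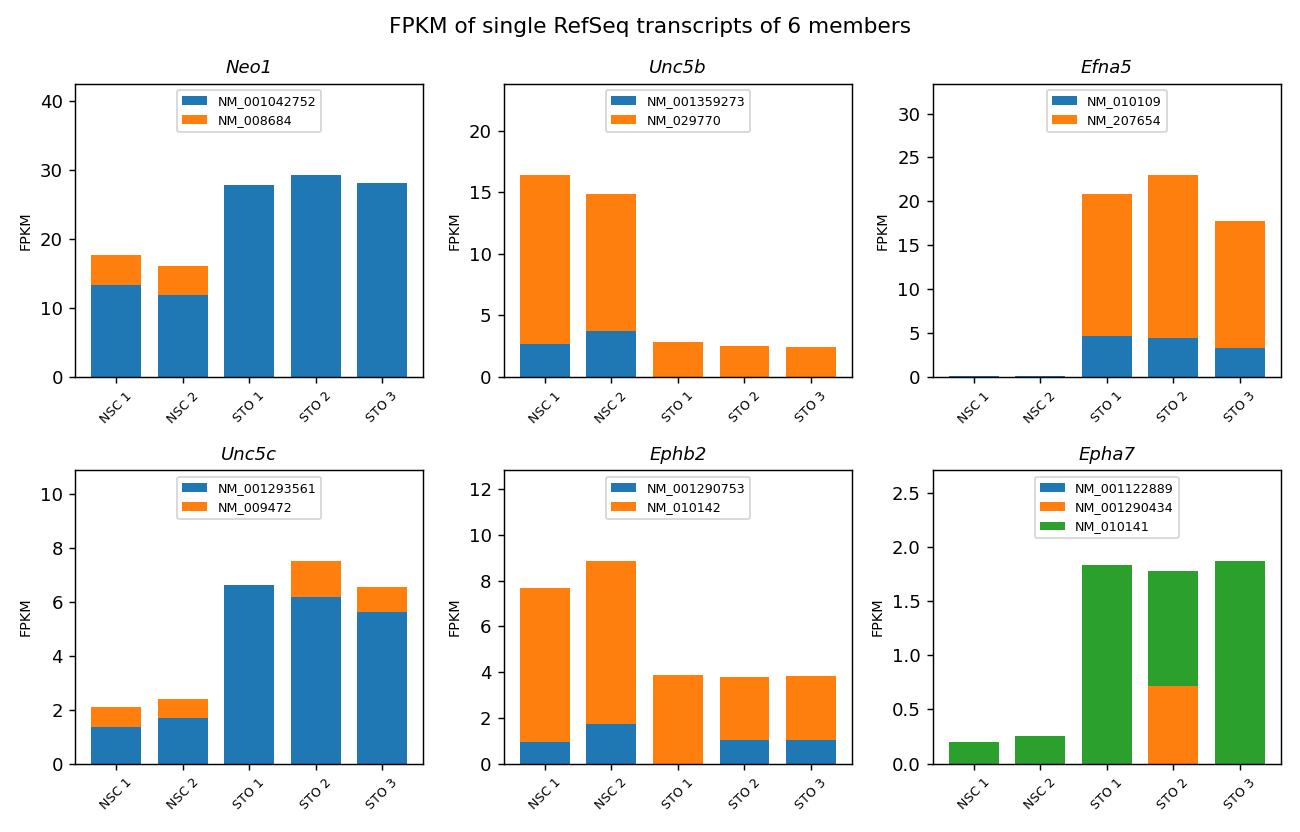
Stacked bars give FPKM of single RefSeq transcripts of 6 members in each sample, with the y axis from 0. NM_008684 of Neo1 appears in the NSC samples alone, and Epha7 and Ephb2 show splits that change between STO replicates while the total hardly moves.

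Several members lie next to each other in the genome. Efna1, Efna3 and Efna4 follow each other on chromosome 3 (mm9), all on the minus strand, with 33999 and 10513 bases between them. Efna1 and Efna4 were higher in STO cells, whereas Efna3, which lies between them, was at a like level in both cell types. The 250 bases upstream of these 3 genes are shown in the same way.
Efna1 (chr3:89083568-89083817, minus strand): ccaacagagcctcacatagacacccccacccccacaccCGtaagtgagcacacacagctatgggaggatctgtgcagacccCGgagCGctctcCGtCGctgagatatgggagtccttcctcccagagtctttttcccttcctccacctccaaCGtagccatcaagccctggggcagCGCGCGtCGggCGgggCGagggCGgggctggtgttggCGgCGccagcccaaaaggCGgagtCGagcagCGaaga
Efna3 (chr3:89126802-89127051, minus strand): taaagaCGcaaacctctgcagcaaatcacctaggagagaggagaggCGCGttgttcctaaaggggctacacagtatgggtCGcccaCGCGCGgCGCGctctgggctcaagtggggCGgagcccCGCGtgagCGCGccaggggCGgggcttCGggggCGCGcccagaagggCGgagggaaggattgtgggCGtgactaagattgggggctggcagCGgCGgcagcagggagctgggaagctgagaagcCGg
Efna4 (chr3:89141951-89142200, minus strand): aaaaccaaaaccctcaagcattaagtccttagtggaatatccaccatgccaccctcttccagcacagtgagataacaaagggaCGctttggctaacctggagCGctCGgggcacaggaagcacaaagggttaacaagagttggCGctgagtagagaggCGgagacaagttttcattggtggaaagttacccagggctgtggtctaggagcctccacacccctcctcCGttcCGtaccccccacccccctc
They held 18, 23 and 7 CpGs, and the GC box GGGCGG (either strand) occurred 2, 3 and 0 times. This box was present in 28 of the 39 member windows and in 44.3% of all windows. Robo4 and Robo3 lie 2021 bases apart on chromosome 9, and both were below the filter. Robo1 and Robo2, 846205 bases apart on chromosome 16, were both higher in NSCs. Mir218-1 lies within the Slit2 locus and Mir218-2 within that of Slit3, on the same strand. Reads from Unc5a and Hk3, from Ntn4 and a pair of predicted genes, and from Ntn5 and Sec1, which overlap on opposite strands, can be told apart only where counting used the strand, which is not given in the sources used here.

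The partner genes of these pathways were taken from a list of 76, of which 73 were tested, 2 were below the filter and 1 was not analysed here. At an adjusted p under 0.05, 30 were higher in NSCs and 34 in STO cells, and 9 did not pass, so that 87.7% passed against 85.6% of all genes tested. With a difference of at least 1 in addition, 27 of 73 (37.0%) remained, 16 higher in NSCs and 11 in STO cells, close to the 38.4% of all genes tested. The median difference was 0.10. Of the other ligands and co-receptors, 10 of 12 were past both limits, 7 higher in NSCs and 3 in STO cells. Several of these, such as Dscam, Dscaml1 and Draxin, passed the filter through a single cell type and so had to differ. The list was also chosen with earlier results known. No test was made of this count, which therefore describes the listed genes only.

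Among these ligands and co-receptors, Dscam and Dscaml1, adhesion molecules of neurons of which DSCAM also binds netrin, were higher in NSCs. Dscam had 27.3 and 27.8 FPKM in NSCs and at most 0.125 FPKM in STO cells, and Dscaml1 had 4.25 and 5.59 FPKM against 0. Draxin, a secreted ligand of DCC, had 11.3 and 10.9 FPKM in NSCs and at most 0.0171 FPKM in STO cells (difference -3.58, adjusted p = 9.8e-09). Toward STO cells, Rgmb, a ligand of neogenin, had 4.66 and 4.62 FPKM in NSCs and at least 26.6 FPKM in STO cells (difference 2.46, adjusted p = 1.0e-06). Flrt2, which binds UNC5 receptors, had 3.39 and 3.55 FPKM in NSCs and 15.2, 16.5 and 14.9 FPKM in STO cells (difference 1.88, adjusted p = 5.7e-07). Ntng2, a membrane-anchored netrin-G, differed by 1.14 (adjusted p = 4.9e-05).

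Heparan sulfate, a sugar chain that SLIT proteins need for ROBO binding, was covered by 15 genes for enzymes and core proteins. Of these, 3 were higher in NSCs, 8 in STO cells, 3 did not pass and 1 was below the filter, so that 78.6% of those tested passed against 85.6% of all genes. Sdc3, the neural syndecan, had 149.7 and 162.5 FPKM in NSCs and between 4.29 and 4.59 FPKM in STO cells (difference -4.86, adjusted p = 8.2e-09). Gpc4, Sdc2 and Sdc1, further core proteins, were higher in STO cells by 2.02, 1.54 and 1.19 (adjusted p = 1.4e-06, 5.6e-07 and 6.3e-06). Of 4 proteases tested, 2 were higher in NSCs and 2 in STO cells, where 85.6% of all genes tested passed. Adam17, a sheddase of surface proteins, was higher in STO cells by 1.04 (adjusted p = 5.2e-06).

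Cytoplasmic effectors were called in both directions, where 43.7% of all genes tested were higher in NSCs and 41.9% in STO cells. Of 21 Eph and ephrin effectors tested, 9 were higher in NSCs and 11 in STO cells, so that 95.2% passed against 85.6% of all genes. Chn1 and Chn2, the chimaerins that act downstream of Eph receptors, had 38.4 and 38.7 FPKM and 45.6 and 49.5 FPKM in NSCs and at most 0.0357 FPKM in STO cells. Fyn, a Src family kinase, had 228 and 251 FPKM in NSCs and 15.9, 16.1 and 15.9 FPKM in STO cells (difference -3.82, adjusted p = 1.7e-08). Ngef, the Eph-bound exchange factor ephexin, Rasa1 and the phosphatase gene Ptpn11 were higher in STO cells by 1.64, 1.5 and 1.23 (adjusted p = 3.7e-07, 8.1e-07 and 1.7e-06). Of 12 SLIT/ROBO effectors, 7 were higher in NSCs and 5 in STO cells, where 85.6% of all genes tested passed. Those past a difference of 1 were the ROBO-binding GTPase activators Srgap3 (-2.48, adjusted p = 5.0e-07) and Srgap2 (-1.55, adjusted p = 1.2e-06). This was 16.7% of the class, against 38.4% of all genes tested. Of 10 netrin effectors, 2 were higher in NSCs and 4 in STO cells, so that 60% passed against 85.6% of all genes tested. Dapk1, a death-associated kinase that binds UNC5B, had 7.22 and 7.41 FPKM in NSCs and 0.519, 0.588 and 0.587 FPKM in STO cells (difference -2.41, adjusted p = 5.6e-08).

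**Figure D5:**
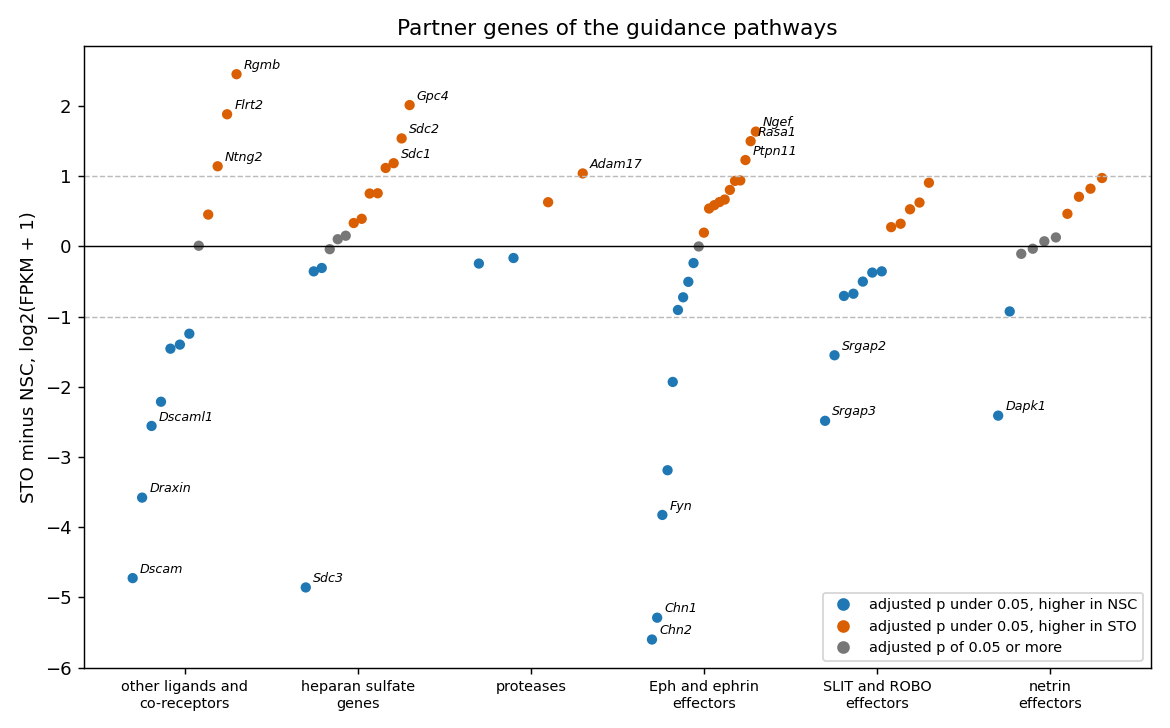
Each point is a partner gene, placed by class on the x axis and by its difference STO minus NSC in log2(FPKM + 1) on the y axis; colours give the side of the threshold. Points spread to both sides in every class, from Chn2 at -5.60 to Rgmb at 2.46.

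Differences on the log2(FPKM + 1) scale understate the change of members with low values. Rescaling all samples to the same FPKM sum moved the median difference of all genes from -0.023 to 0.13, and differences near this shift, such as those of Ephb3, Efna2, Efna3, Ephb6 and Ntn1, depend on the choice of scale.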

How the data were processed

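RNA-seq of 2 NSC and 3 STO samples was analysed. Per the labels and the study's methods, stranded mRNA libraries were read as paired ends, trimmed, aligned to mm9 with HISAT2 (given as version 4.8.2) and quantified with Cufflinks 2.2.1 on RefSeq transcripts; whether the strand was used in counting is not given in the sources used here. The authors deposited FPKM values with their confidence bounds for 40201 transcripts, without read counts. Depth and length are already divided out, and an exact 0 can also be a failed estimate; all member transcripts had the status OK.

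Symbols came from RefSeq accessions (table of GRCm38.p6, used for names only), which matched 99.4% of transcripts. Coordinates are those of the files (mm9, written from 1), strands those of GENCODE vM1 on NCBIM37, the same build. Transcripts that share a symbol and overlap in the genome were added up. Fragments behind a value were taken from its upper bound, as 2 standard deviations of a Poisson count; they are too low where several transcripts share reads. The test was limma 3.58.1 (lmFit and eBayes with a trend, in R 4.3.3) on log2(FPKM + 1). It covered genes with a mean of at least 1 FPKM in either cell type, with a threshold of 0.05 for the adjusted p. The same fit was run on simulated data with independent noise and few changed genes. These samples differ from that setting, so the simulation does not vouch for the threshold here. Other steps used Python 3.11.15, pandas 2.3.3 and matplotlib 3.10.9.

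Members, marker and partner lists, tests and alternatives were chosen with earlier results of these data known. All members are reported. Members that passed or missed the test are named with their values, those below the filter by their levels, and partners as up to 3 genes per class and direction with the largest difference of at least 1. The alternatives changed the pseudocount (0.1), filter, scaling, variance trend, replicates, replicate block and summing of transcripts.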

Additional observations from a re-analysis of the deposited data

How the results depend on the processing

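Counts of members called stayed within 1.5 times of those reported under every alternative run. They ran from 13 to 19 higher in NSCs and from 10 to 12 in STO cells. The 19 came from the fit without a filter, in which 38 members were tested, and with 28 tested the highest was 14. Without a filter, 6559 of all 17725 genes tested were higher in NSCs and 5919 in STO cells. Rescaling to the same sum moved the counts over all 12293 genes from 5375 to 4684 higher in NSCs. Those higher in STO cells moved from 5153 to 5885. With a difference of at least 1, the member counts ran from 7 (quantile normalization) to 11 (pseudocount 0.1) in NSCs. In STO cells they ran from 9 to 10. Over all genes, 2257 and 2874 were higher in NSCs by at least 1 in these fits, against 2617 in the main fit. Among the partner genes a single count moved further, with 17 in place of 11 higher in STO cells by at least 1 when the most abundant transcript stood for the gene. Over all genes this count was 2212 of 12205, against 2103 of 12293 in the main fit. Over the 28 tested members and 12 alternatives, 322 values kept their direction and side of the threshold, 3 became stronger and 11 changed sign, all of small differences: with rescaling to the same FPKM sum, Efna3 (0.11), Ephb6 (0.066) and Ntn1 (0.10); with quantile normalization, Epha4 (0.36) and Ephb6 (0.24); without NSC replicate 1, Efna2 (-0.036), Efna3 (0.0059) and Ntn1 (0.079); without STO replicate 2, Ephb6 (0.027); and Efna3 without STO replicate 3 or with the replicate block (0.0036 in both). With single replicates left out, these differences ran from -0.036 to 0.23 (Efna2), from -0.086 to 0.0059 (Efna3), from -0.12 to 0.027 (Ephb6) and from -0.21 to 0.079 (Ntn1). The cause was not tested.

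Log2 ratios of class sums, STO over NSC, shifted when samples were rescaled to the same sum, to 1.00 (EphA), 1.38 (EphB), 1.92 (ephrin-A), 1.83 (ephrin-B), 6.15 (SLIT), -4.06 (ROBO), -0.54 (netrins) and 0.11 (netrin receptors, from -0.062). With the most abundant transcript per gene they were 1.11 (EphB), -4.56 (ROBO) and 0.25 (netrin receptors). With 1 NSC replicate left out, the lone NSC sample is assumed to vary like the STO samples.

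Both cell types have replicates 1 and 2 in the labels, which nothing pairs. Deviations from the group means correlated by 0.0075 and 0.061 for equal numbers and by -0.061 to 0.050 for others. With 2 NSC samples their deviations are equal in size and opposite in sign. The values for equal and other numbers are therefore not independent and cannot settle a pairing. With the replicate number as a block, in which STO replicate 3 has no counterpart, 13 members were higher in NSCs and 10 in STO cells, as without it. Of all 12293 genes tested, 5250 were higher in NSCs and 4994 in STO cells with this block. Low values limit the rest: members near 0 were judged from few fragments.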
